A study of Homo sapiens with 11 samples.

Results

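The glutathione and thioredoxin genes GCLC, GCLM, GSS, GSR, GPX4, TXN, TXNRD1, PRDX1, SRXN1 and OSGIN1 were followed across 11 treatment conditions of HEK293T cells. They were picked by gene name, with earlier results of these data known, so their counts beside the share of all genes are a description. All 10 were found among the 38021 genes of the count table and passed the filter on low counts, which left 17793 genes. HEK293T is an established human embryonic kidney line that carries the SV40 large T antigen, and its genotype is labelled WT in every condition. Every culture was treated for 6 h. The conditions were vehicle (0.1% DMSO), thapsigargin (Tg, 500 nM), AA147 at 10 µM, and AA132 at 0.1, 0.3, 1, 3, 6, 10, 15 and 30 µM. Tg inhibits SERCA, which pumps calcium into the endoplasmic reticulum (ER), and so stresses the ER; AA147 and AA132 are compounds used to adjust protein folding capacity there. The labels list 1 sample per condition and the table holds 3 numbered columns for each, here called libraries 1 to 3. Whether these came from separate cultures is not stated, so the p-values measure the spread between columns, which may be technical. All results come from 1 cell line, and every treatment was compared with the same 3 vehicle libraries.

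Glutathione is a tripeptide thiol made in a first, rate-limiting step by glutamate-cysteine ligase (catalytic subunit GCLC, modifier subunit GCLM) and a second step by glutathione synthetase (GSS). Glutathione reductase (GSR) returns oxidised glutathione to its reduced form, and the selenoprotein GPX4 spends glutathione to detoxify lipid hydroperoxides. In parallel, thioredoxin (TXN) reduces protein disulfides and is itself recycled by the selenoprotein thioredoxin reductase 1 (TXNRD1). Peroxiredoxin 1 (PRDX1) removes hydrogen peroxide with electrons from thioredoxin, and sulfiredoxin (SRXN1) restores peroxiredoxins that have become over-oxidised. OSGIN1 is an oxidative stress-induced growth inhibitor. Many of these genes are known targets of the transcription factor NRF2, which binds antioxidant response elements (AREs) in DNA.

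Promoter letters are shown because 5 of the members were called higher at 10, 15 and 30 µM AA132, as described below. RefSeq promoter windows on GRCh38.p14, from 250 bases before to 50 bases after the start site, were held for 7 of the members (10 windows, since TXNRD1 has 2 and GPX4 has 3), and not for GSS, GSR or PRDX1. Each was searched on both strands for the ARE core TGACNNNGC, for the TPA response element TGAGTCA, which shares its TGAC letters with the ARE core when read on the opposite strand, and for the ER stress response element. The ARE core was present in the GCLM window and in both TXNRD1 windows. Of all 35116 RefSeq promoter windows of the same length, 13.3% held it. The TPA response element was present in the OSGIN1 window, against 4.95% of all windows. No listed motif was found in the GCLC, TXN, GPX4 or SRXN1 windows, and the ER stress response element, held by 0.0769% of windows, was in none of the 10. A match is a string of letters and not a measured binding site. Sequence outside these windows was not searched, so an absence here does not show that a gene lacks the motif. Below, the strand is that of the gene, each run ends at the start site (position 0), and capitals mark the matches.
GCLM, chr1:93909430-93909680, minus strand: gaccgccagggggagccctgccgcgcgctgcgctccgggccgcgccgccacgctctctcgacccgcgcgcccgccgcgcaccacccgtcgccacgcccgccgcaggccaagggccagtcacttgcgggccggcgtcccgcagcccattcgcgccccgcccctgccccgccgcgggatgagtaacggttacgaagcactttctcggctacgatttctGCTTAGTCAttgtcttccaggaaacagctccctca
TXNRD1, upstream start site, chr12:104215529-104215779, plus strand: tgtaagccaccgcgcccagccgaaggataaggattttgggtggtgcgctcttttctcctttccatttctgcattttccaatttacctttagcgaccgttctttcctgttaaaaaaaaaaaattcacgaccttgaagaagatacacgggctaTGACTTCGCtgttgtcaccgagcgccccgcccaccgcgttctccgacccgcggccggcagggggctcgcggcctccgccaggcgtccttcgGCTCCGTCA
TXNRD1, downstream start site, chr12:104286782-104287032, plus strand: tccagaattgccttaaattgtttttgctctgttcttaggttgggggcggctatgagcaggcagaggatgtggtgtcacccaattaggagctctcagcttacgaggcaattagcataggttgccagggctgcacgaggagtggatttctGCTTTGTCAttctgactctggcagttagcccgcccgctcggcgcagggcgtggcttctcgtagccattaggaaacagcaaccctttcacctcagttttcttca
OSGIN1, chr16:83952990-83953240, plus strand: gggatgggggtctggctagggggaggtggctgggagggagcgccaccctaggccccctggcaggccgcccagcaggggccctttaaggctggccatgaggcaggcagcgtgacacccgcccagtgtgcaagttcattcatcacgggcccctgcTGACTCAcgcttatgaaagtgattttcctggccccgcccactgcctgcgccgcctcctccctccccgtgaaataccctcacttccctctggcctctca
The GCLM match lies 34 to 26 bases before the start site and reads on the opposite strand to the gene. The downstream TXNRD1 match lies 102 to 94 bases before its start site. The 2 upstream TXNRD1 matches lie at 99 to 91 bases before the start site and at 8 bases before it up to the start site itself.

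Library totals ran from 32.3 to 37.96 M expected counts, and the second lowest was 36.4 M. Within conditions, 33 pairs of libraries had a median chi-square per degree of freedom of 8.01, above counting error alone. The highest, 49.9 and 64.5, were those of vehicle library 1 against vehicle libraries 3 and 2. Of 9 genes typical of HEK293-type cells, 8 were above 1 CPM on average (all but PAX2). Of 8 markers of other cell types, 7 stayed at or under 0.218 CPM in every library, while MYH11 reached 5.66 CPM. MYH11 moved with the members in part: it was called in the AA132 slope (0.15, edgeR adjusted p = 0.0253) and higher at 30 µM AA132 than under Tg (0.40, 0.0384), but not at 30 µM against vehicle (0.35, 0.161). Of the 9 HEK293 genes 2 were called higher and 3 lower at 30 µM AA132, beside 7.05% of all genes called in either direction. Under Tg 2 were called higher and 3 lower, beside 31.2% of all genes. The part of these genes in the results was not tested.

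The 4 libraries described next were set apart, which bears on results at 1, 3 and 10 µM AA132 and, through vehicle, on every comparison with vehicle. The 681 genes outside the member list that were called higher at 30 µM AA132 served as a scale: their median log2 difference from the vehicle mean was computed in each library. AA132 1 µM library 1 was at 0.133, where libraries 2 and 3 of that dose were at 0.031 and 0.027. AA132 3 µM library 3 was at 0.025, where libraries 1 and 2 were at 0.144 and 0.166. On this scale the 1 µM library thus lay near the other 3 µM libraries, and the 3 µM library near the other 1 µM libraries, against their labels. AA132 10 µM library 1 was at 0.151, within the 0.137 to 0.153 of the 3 AA147 libraries, while libraries 2 and 3 of 10 µM AA132 were at 0.289 and 0.279. AA147 library 1 differed from its condition in the same chi-square measure (24.8 and 23.89, where 1 µM library 1 had 14.62 and 15.08), but not on the response scale, and was kept. Without it the AA147 member count by edgeR was still 0. The labels were kept, and results are given with all libraries and, where they rest on these libraries, also without the 4 (the 3 named here and vehicle library 1), a choice made after the values were seen. Of the 4, 3 were chosen by their AA132 response, and all conditions share the spread in the fit. Calls gained by leaving them out, in any comparison, are therefore a description and no independent support.

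**Figure D1:**
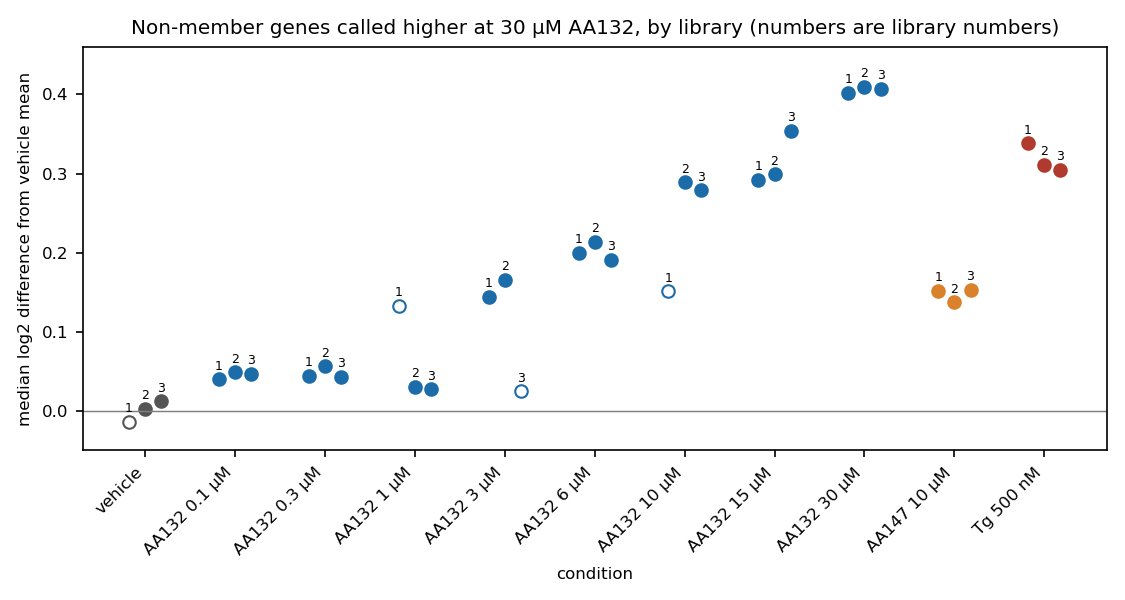
Median log2 difference from the vehicle mean (y axis) over the 681 non-member genes called higher at 30 µM AA132, for each library (points, numbered 1 to 3) in each condition (x axis). Open points are the 4 libraries treated as standing apart; the 1 µM library 1 (0.133) lies near the 3 µM libraries 1 and 2 (0.144 and 0.166).

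Levels are given as CPM (counts divided by the library total, scaled by the trimmed mean of M values, TMM, and put on the usual CPM scale), and between genes as CPM per kb of the canonical GENCODE v44 transcript. In vehicle the PRDX1 transcript was the most abundant by length, at 969 CPM per kb, followed by GPX4 at 285 and TXN at 276. TXNRD1 was at 64.4, GSS at 31.3, GCLC at 27.9 and GSR at 24.6 CPM per kb. GCLM at 4.49, SRXN1 at 4.01 and OSGIN1 at 0.90 CPM per kb were the scarcest. Thus the 3 members with the largest fitted log2 rise at 30 µM AA132 (OSGIN1, GCLM and SRXN1, below) were also the 3 scarcest in vehicle.

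**Figure D2:**
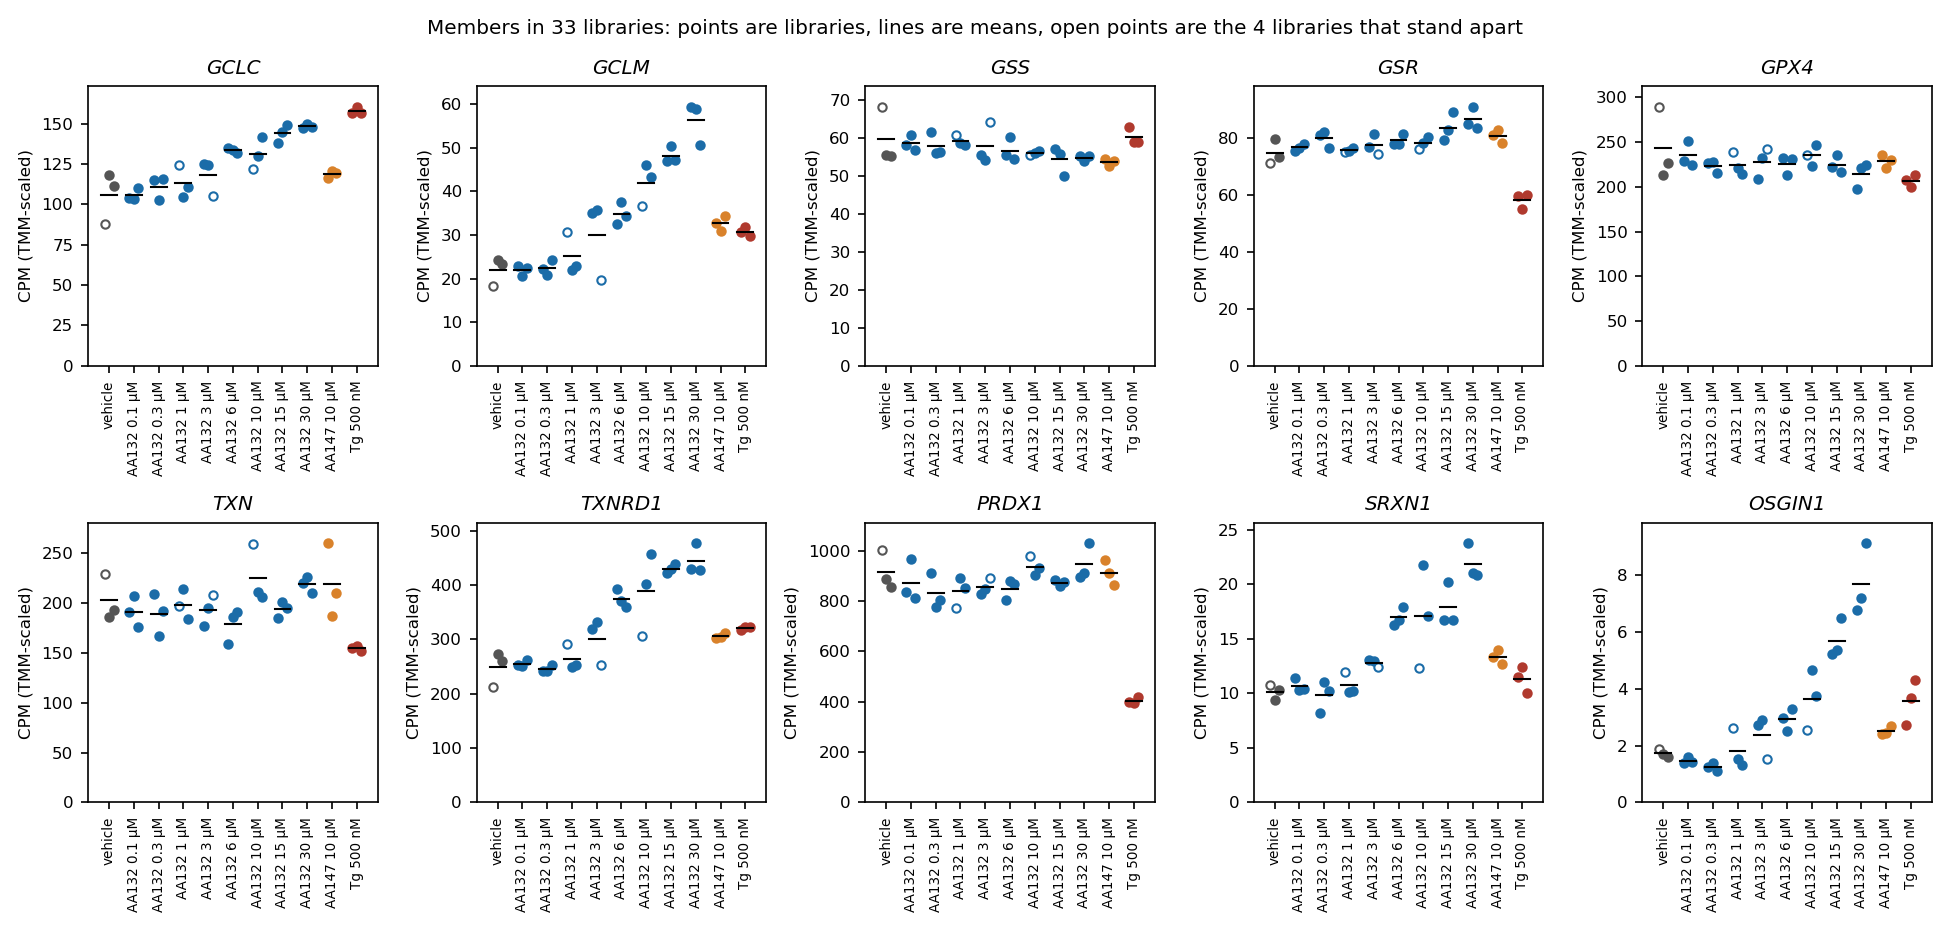
CPM (TMM-scaled, linear axes from 0) of each member in all 33 libraries. Points are libraries, black lines are condition means (n = 3), and open points are the 4 libraries that stand apart. GCLM, TXNRD1, SRXN1 and OSGIN1 have their highest means at 30 µM AA132, and PRDX1 is lowest in the 3 Tg libraries (393 to 418 CPM).

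Transcripts of both subunits of glutamate-cysteine ligase rose under AA132 and under Tg, to different degrees. GCLM (chromosome 1, 93885199 to 93909456, minus strand) stood at 18.3, 24.2 and 23.3 CPM in vehicle libraries 1 to 3. At 30 µM AA132 it stood at 59.4, 58.9 and 50.6 CPM, with no overlap. The means were 21.9 ± 3.15 and 56.3 ± 4.97 CPM (SD, n = 3), which the fit gave as 1.36 on the log2 scale (SE 0.14, edgeR adjusted p = 9.20e-08). At 10 µM AA132 GCLM was at 36.6, 46.1 and 43.4 CPM, all above vehicle, and library 1 was again the lowest. The fitted rise there was 0.94 (edgeR adjusted p = 0.000125). Under Tg the libraries lay close together at 30.6, 31.9 and 29.8 CPM, also above vehicle, with a rise of 0.49 (adjusted p = 0.00827). The Tg call was lost without vehicle library 1 (0.37, adjusted p = 0.0612), but was made without all 4 libraries that stand apart (0.37, adjusted p = 0.000451). In the order of condition means, GCLM ran from vehicle through 0.1, 0.3, 1 and 3 µM AA132, Tg, AA147 and then 6, 10, 15 and 30 µM AA132. Only the steps from 10 to 15 and from 15 to 30 µM separated neighbours in that order without overlap.

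GCLC (chromosome 6, 53497341 to 53616970, minus strand) responded less to AA132 and most to Tg. Its vehicle libraries were at 87.8, 118 and 111 CPM, and its 30 µM AA132 libraries at 148, 150 and 148 CPM. The vehicle libraries were spread widely and the treated ones tightly, without overlap. The rise was 0.49 on the log2 scale (SE 0.08, edgeR adjusted p = 0.000129), and 0.37 without the 4 libraries. Fitted with only the vehicle and 30 µM libraries, it missed the threshold (0.49, adjusted p = 0.119). Under Tg GCLC was at 157, 160 and 157 CPM, a rise of 0.58 (SE 0.08, adjusted p = 6.56e-07), or 0.46 without the 4 libraries. Tg libraries lay above all 30 µM AA132 libraries, but the difference between those treatments did not pass the threshold (-0.09, 95% interval -0.25 to 0.07, adjusted p = 0.430). GCLC shares 500 bases with the noncoding LINC01564 on the opposite strand, and without known strand use their reads cannot be told apart there.

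GSS (chromosome 20, 34928432 to 34956027, minus strand), the second enzyme of synthesis, was not called in any of the 13 comparisons made. Its condition means lay between 53.8 ± 0.95 CPM under AA147 and 60.3 ± 2.36 CPM under Tg. Vehicle library 1 was the highest of all 33 libraries at 68.3 CPM, against 55.5 and 55.4 CPM in the other vehicle libraries. At 30 µM AA132 the fitted log2 difference was -0.12 (95% interval -0.27 to 0.03, edgeR adjusted p = 0.351). GSS shares 218 bases with MYH7B on the opposite strand. All 3 of its 30 µM libraries, at 55.3, 53.9 and 55.2 CPM, lay just below the lowest vehicle library.

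Of the enzymes that recycle or spend glutathione, GSR (chromosome 8, 30678066 to 30727846, minus strand) moved in opposite directions under the treatments. The vehicle libraries were at 71.2, 79.7 and 73.3 CPM. Tg libraries were at 59.6, 55.1 and 59.9 CPM, all lower than any other library. This was a fall by 0.36 on the log2 scale (SE 0.06, edgeR adjusted p = 1.12e-05). At 30 µM AA132 GSR was at 84.8, 90.9 and 83.6 CPM, all above vehicle, a rise of 0.21 (SE 0.06, adjusted p = 0.0235). That small rise was no longer called when 30 µM library 1 (adjusted p = 0.0507), 30 µM library 2 (0.140), vehicle library 1 (0.0576) or vehicle library 3 (0.0760) was left out, nor with no filter on low counts (0.151) or with only the compared conditions fitted (0.392). It was made without the 4 libraries that stand apart (0.18, adjusted p = 0.0438).

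GPX4 (chromosome 19, 1103982 to 1106791, plus strand) gave no stable change. Vehicle library 1 held the highest value of all libraries, 289 CPM, and vehicle libraries 2 and 3 were at 213 and 226 CPM. Tg libraries were at 208, 199 and 213 CPM, the lowest group. The Tg difference was called with all libraries (-0.23, edgeR adjusted p = 0.0235) but not without vehicle library 1 (-0.09, adjusted p = 0.341), Tg library 2 (-0.21, 0.0913) or the 4 libraries (-0.09, 0.296), nor with only the compared conditions fitted (-0.24, 0.192). At 30 µM AA132 the difference was -0.18 (95% interval -0.34 to -0.02) with adjusted p = 0.180, and it was called without vehicle library 2 (-0.27, 0.0366).

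The reductase TXNRD1 (chromosome 12, 104215779 to 104350307, plus strand) rose with AA132, while its substrate TXN was called at no AA132 dose. TXNRD1 was at 212, 273 and 260 CPM in vehicle and at 429, 477 and 429 CPM at 30 µM AA132. No treated library came near the vehicle range. The rise was 0.84 on the log2 scale (SE 0.10, edgeR adjusted p = 7.39e-07). At 6 µM it was already at 393, 370 and 359 CPM (0.59, adjusted p = 0.000682), and the 6, 10, 15 and 30 µM means followed each other in order with overlap between each pair of neighbours. At 10 µM the libraries were far apart, at 307, 403 and 458 CPM, library 1 being the lowest. Under Tg TXNRD1 was at 317, 323 and 323 CPM, a rise of 0.37 (SE 0.10, adjusted p = 0.00408). The annotated TXNRD1 locus also contains EID3 on the same strand, which averaged 0.29 CPM in vehicle.

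TXN (chromosome 9, 110243810 to 110256507, minus strand) was at 229, 186 and 193 CPM in vehicle and at 221, 226 and 210 CPM at 30 µM AA132. These ranges overlapped, and the log2 difference was 0.11 (95% interval -0.10 to 0.32, edgeR adjusted p = 0.591). Tg libraries were at 155, 157 and 152 CPM, below every other library, a fall by 0.39 on the log2 scale (SE 0.10, adjusted p = 0.00328). High single values of 259 CPM in AA132 10 µM library 1 and 260 CPM in AA147 library 1 stood out from the other libraries of those conditions. GENCODE v44 lists 7 TXN pseudogenes, none of which has a row in the table, so the assignment of TXN reads is uncertain.

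PRDX1 (chromosome 1, 45510914 to 45542732, minus strand), the most abundant member, showed the largest fall of the members. Vehicle libraries were at 1004, 888 and 856 CPM, and Tg libraries at 398, 393 and 418 CPM. The 3 Tg libraries stood far below the other 30 libraries, of which the lowest held 772 CPM. The fall was by 1.18 on the log2 scale (SE 0.07, edgeR adjusted p = 1.05e-14). At 30 µM AA132 PRDX1 was at 895.7, 910.2 and 1029 CPM, within reach of vehicle, and the log2 difference was 0.05 (95% interval -0.10 to 0.19, adjusted p = 0.786). PRDX1 overlaps MMACHC on the opposite strand and has 1 listed pseudogene. MMACHC was at 12.7 CPM in vehicle and was not called under Tg (0.16, adjusted p = 0.298).

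SRXN1 (chromosome 20, 646615 to 653200, minus strand), whose product repairs peroxiredoxins, rose with AA132 and not detectably with Tg. It was at 10.7, 9.42 and 10.3 CPM in vehicle and at 23.8, 21.0 and 20.9 CPM at 30 µM AA132. The treated libraries were at about the same level as each other and clear of vehicle. On the log2 scale the rise was 1.11 (SE 0.13, edgeR adjusted p = 8.19e-07). At 10 µM AA132 its libraries spread from 12.3 CPM in library 1 to 21.8 CPM in library 2, with library 3 at 17.1 CPM. Under Tg SRXN1 was at 11.5, 12.4 and 10.0 CPM, which overlapped vehicle (0.16, 95% interval -0.12 to 0.43, adjusted p = 0.403). GENCODE v44 also places a read-through gene over the SRXN1 locus on the same strand.

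OSGIN1 (chromosome 16, 83931311 to 83966332, plus strand) was the scarcest member and had the largest fitted rise. It was at 1.88, 1.71 and 1.59 CPM in vehicle and at 6.77, 7.19 and 9.13 CPM at 30 µM AA132. This rise of 2.15 on the log2 scale (SE 0.23, edgeR adjusted p = 9.78e-08) is a fold of 4.45. At 15 µM it was at 5.23, 5.36 and 6.49 CPM, below every 30 µM library and above every 10 µM library (2.56, 4.67 and 3.73 CPM). Under Tg it was at 2.74, 3.68 and 4.30 CPM, a rise of 1.05 (SE 0.23, adjusted p = 0.000629). At 0.1 and 0.3 µM AA132 all OSGIN1 libraries (1.12 to 1.58 CPM) lay below the lowest vehicle library, but neither difference passed the test (-0.24 and -0.47, adjusted p = 0.987 and 0.892). The GENCODE locus shares 20135 bases with MLYCD on the same strand. MLYCD had 14.6 CPM in vehicle and was not called at 30 µM AA132 (-0.02, adjusted p = 0.945). Of 4 listed genes that overlap members, 0 were called by edgeR at 30 µM AA132 or under Tg. In the AA132 slope 1 of the 4 was called higher, and their slopes ran from -0.04 to 0.66. The part of such genes in the member counts was not tested.

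**Figure D3:**
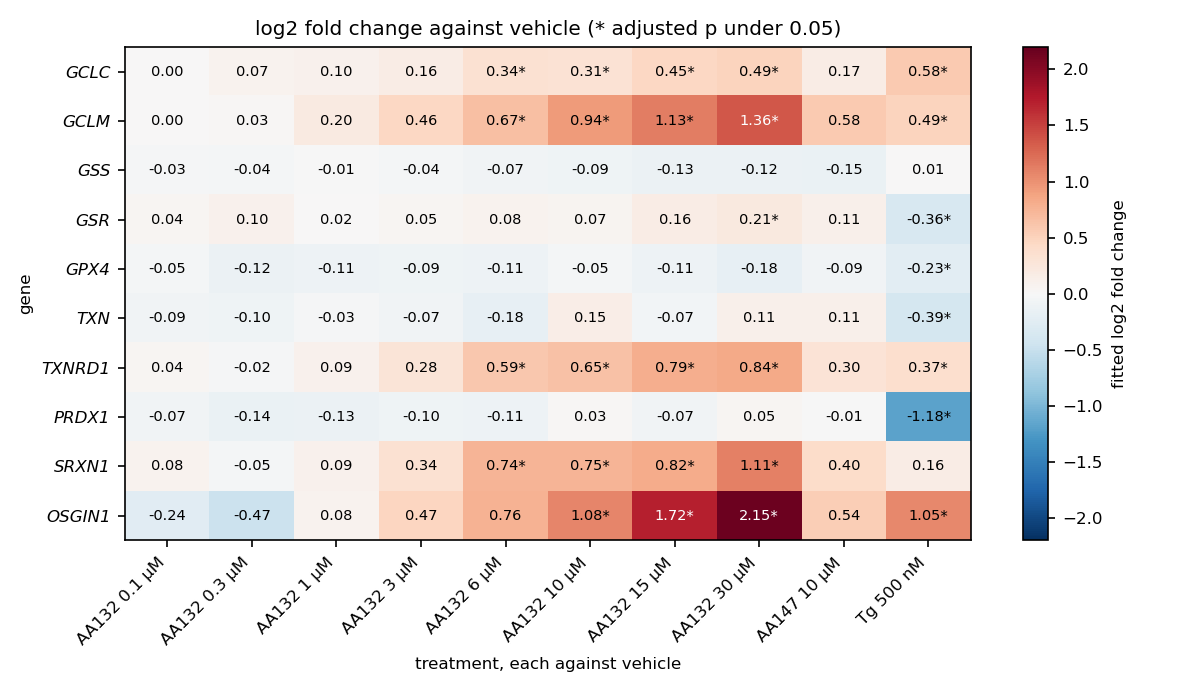
Fitted log2 fold change of each member (rows) under each treatment against vehicle (columns), in colour and in figures, with an asterisk at an edgeR adjusted p under 0.05. AA132 calls start at 6 µM and point upward only, whereas Tg gives 4 calls upward and 4 downward.

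Counted over the members, AA132 calls began at 6 µM. At 0.1, 0.3 and 1 µM edgeR called 0 of 10 members, and 0 had an unadjusted p under 0.05. DESeq2 also called 0 at these doses, and the background, the share of all tested genes called by edgeR, was 0.00% at each. At 3 µM edgeR again called 0 of 10 (background 0.118%), and DESeq2 called 0. There 3 members had an unadjusted edgeR p under 0.05, a looser threshold than that of the background. At 6 µM 4 members were called, all higher (GCLC, GCLM, TXNRD1 and SRXN1; background 1.07%, or 0.866% higher). At 10 µM and at 15 µM 5 members were called, all higher, OSGIN1 being added (background 1.41% and 2.76%, or 1.03% and 1.97% higher). At 30 µM 6 members were called, all higher, with GSR as the addition (background 7.05%, or 3.86% higher). The libraries of 7 members did not overlap vehicle at 30 µM, GSS being the one below it, beside 18.9% of all genes. With only the compared conditions in the fit, edgeR called 0 members at 6 and at 10 µM, and the calls over all genes went from 190 to 25 and from 250 to 8. No member was called lower at any AA132 dose. The median log2 fold change of the members was 0.21, 0.23, 0.30 and 0.35 at 6, 10, 15 and 30 µM, where that of all genes lay between -0.001 and 0.010.

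The onset of the calls depended on the libraries that stand apart. Without those 4, GCLM (0.57, edgeR adjusted p = 9.29e-05) and TXNRD1 (0.29, adjusted p = 0.00736) were called at 3 µM, beside a background of 1.16%. OSGIN1 was then called at 6 µM (0.83, adjusted p = 0.0100), making 5 members (background 4.85%). The counts without the 4 libraries were 5 at 10 µM (background 6.82%), 5 at 15 µM (5.67%) and 6 at 30 µM (14.0%), and 0 at 0.1, 0.3 and 1 µM (0.00%, 0.0111% and 0.00554%). At 3 µM, GCLM was at 35.0, 35.6 and 19.7 CPM, so that library 3 lay within the vehicle range and the others above it. At 1 µM it was at 30.6, 22.1 and 23.0 CPM, library 1 being the high one. Leaving out only 3 µM library 3 gave a GCLM rise of 0.69 (adjusted p = 0.00234). GCLC at 6 and 10 µM lost its call in several fits: it was not called without any 1 of the 6 µM libraries (adjusted p from 0.0753 to 0.109), without 10 µM library 2 or 3 (0.0871 and 0.194), and without vehicle library 1 (0.0914 at 6 µM and 0.137 at 10 µM). OSGIN1 at 10 µM lost its call without 10 µM library 2 (0.0981), and GCLM at 6 µM without 6 µM library 2 (0.0646).

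A slope on log10 dose over the 24 AA132 libraries asked whether members follow concentration without use of vehicle. It was called for 6 members, all rising, beside 18.7% of the 17554 genes tested, 9.83% rising. Without the libraries that stand apart it was again called for 6, beside 21.2%. The AA132 libraries left out were chosen by their AA132 response, so that repeat is no independent support. OSGIN1 gained 1.06 log2 units per 10-fold dose (SE 0.09, edgeR adjusted p = 4.37e-10). GCLM gained 0.57 (SE 0.05, adjusted p = 2.89e-10), SRXN1 0.46 (SE 0.05, 1.92e-08), TXNRD1 0.38 (SE 0.04, 1.20e-09) and GCLC 0.20 (SE 0.02, 6.70e-08). The slope of GSR was 0.05 (adjusted p = 0.0475), a call missed by 15 of the 24 fits with 1 library left out and without the 30 µM dose (adjusted p = 0.361). The slopes of GSS (-0.04), GPX4 (-0.02), TXN (0.06) and PRDX1 (0.05) did not pass. PRDX1 passed without 0.1 µM library 2 (0.08, adjusted p = 0.0134) and without the 0.1 µM dose (0.09, 0.0277).

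**Figure D4:**
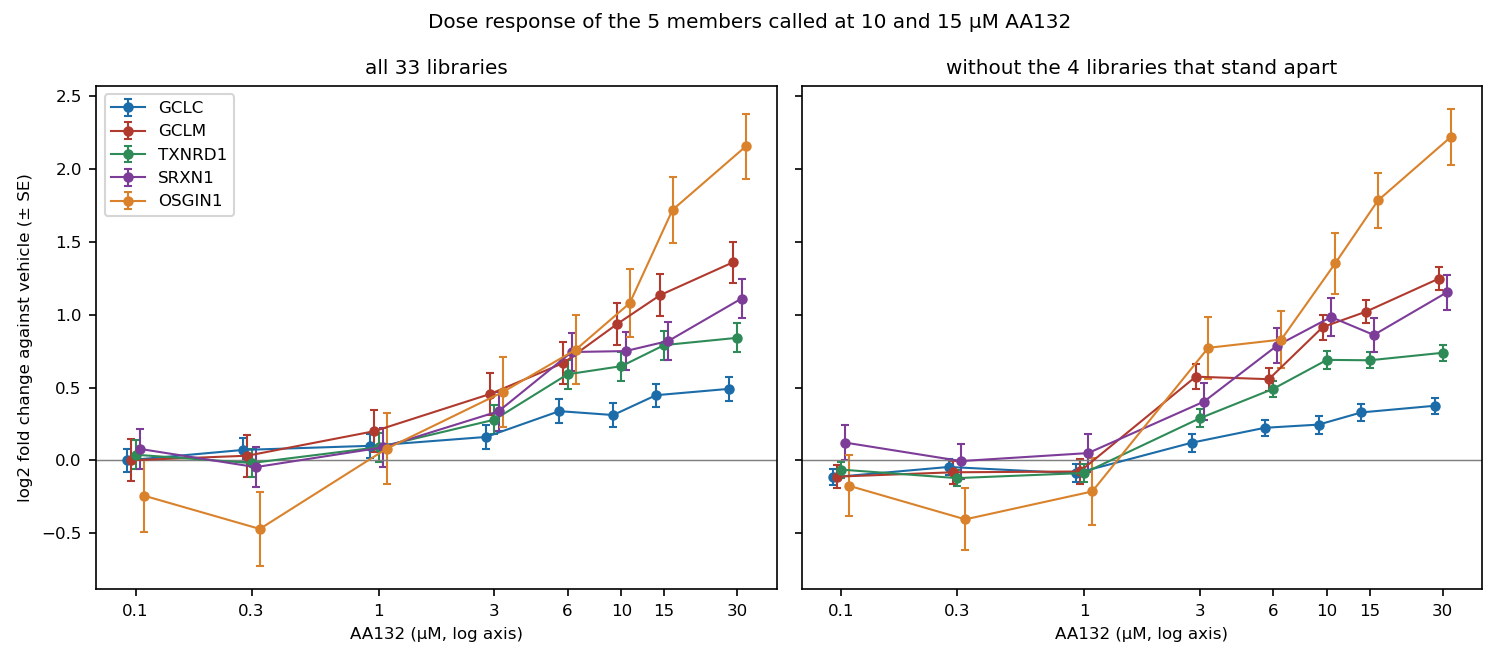
Log2 fold change against vehicle (y axis, ± SE) by AA132 dose in µM (log axis) for the 5 members called at 10 and 15 µM, with all 33 libraries (left) and without the 4 that stand apart (right), points being set slightly apart sideways at each dose. OSGIN1 ends highest in both panels (2.15 and 2.22 at 30 µM), and GCLC lowest (0.49 and 0.37).

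AA147 at 10 µM left the members' calls at 0 of 10 by edgeR, beside a background of 0.0225%. DESeq2 called 1 member, and 26 genes in all. At an unadjusted edgeR p under 0.05, a looser threshold than that of the background, 6 members passed, with GSS lower (-0.15). GCLM was at 32.8, 31.0 and 34.5 CPM, above every vehicle library, with a log2 difference of 0.58 (95% interval 0.29 to 0.87, edgeR adjusted p = 0.192). Without the 4 libraries that stand apart GCLM was called by edgeR (0.47, adjusted p = 0.00110, background 0.532%). The difference was then smaller, and its SE was 0.08 where it was 0.14 with all libraries. DESeq2 with all libraries called GCLM too (0.58, adjusted p = 0.0346). TXNRD1 at 302, 304 and 313 CPM, SRXN1 at 13.4, 14.0 and 12.7 CPM and OSGIN1 at 2.41, 2.45 and 2.68 CPM also lay above their vehicle libraries. Their differences of 0.30, 0.40 and 0.54 did not pass the test. With GSS, whose libraries lay below vehicle, 5 members did not overlap it, beside 7.46% of all genes.

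AA132 and AA147 were compared directly at the matched dose of 10 µM, the 1 pair of compounds and dose that allows it. With all libraries edgeR called 0 of 10 members, beside a background of 0.0674%, and DESeq2 called 0. An unadjusted edgeR p under 0.05, a looser threshold than that of the background, was reached by 4 members. The differences were 0.36 for GCLM (95% interval 0.08 to 0.64, adjusted p = 0.447), 0.35 for TXNRD1 (0.14 to 0.55, 0.237), 0.35 for SRXN1 (0.09 to 0.62, 0.419) and 0.54 for OSGIN1 (0.08 to 1.00, 0.501). These 4 intervals lie above 0, so the missed threshold does not show that the compounds act alike. For the other members the intervals included 0, and ran from -0.02 to 0.30 for GCLC, -0.16 to 0.08 for GSR and -0.16 to 0.25 for TXN. Without the 4 libraries that stand apart, of which 10 µM AA132 library 1 is part, 4 members passed the threshold, higher under AA132: TXNRD1 by 0.49 (adjusted p = 3.04e-07), GCLM by 0.45 (0.000624), SRXN1 by 0.54 (0.00610) and OSGIN1 by 0.74 (0.0211), beside a background of 1.70%. That library was left out for its low AA132 response, so the differences without it are not independent of that choice. Leaving out only that library called TXNRD1 (0.49, adjusted p = 0.00609) and SRXN1 (0.54, 0.0301).

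Tg called 8 of 10 members, 4 higher (OSGIN1, GCLC, GCLM and TXNRD1) and 4 lower (PRDX1, TXN, GSR and GPX4), beside a background of 31.2% of all genes (16.2% higher and 15.0% lower). The same 8 had no overlap with vehicle, beside 38.2% of all genes. Without the 4 libraries it called 7, GPX4 being lost, beside 31.0%. AA132 at 30 µM and Tg at 500 nM were then compared with each other, a contrast that takes no vehicle level, although all conditions set the spread in the fit; the doses differ and are those the study chose. AA132 was higher for 7 members and lower for none, beside a background of 29.8% (14.3% higher); without the 4 libraries it was again higher for 7, beside 37.0%. PRDX1 differed most, by 1.23 (SE 0.07, edgeR adjusted p = 1.14e-14), followed by OSGIN1 (1.10, 0.000116), SRXN1 (0.95, 7.93e-07) and GCLM (0.87, 8.88e-06). GSR (0.57, 2.77e-09), TXN (0.50, 0.000267) and TXNRD1 (0.47, 0.000350) were the others. GCLC, GSS (-0.14) and GPX4 (0.05) did not pass. Leaving out any 1 of the 6 libraries kept the number of called members at 7.

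**Figure D5:**
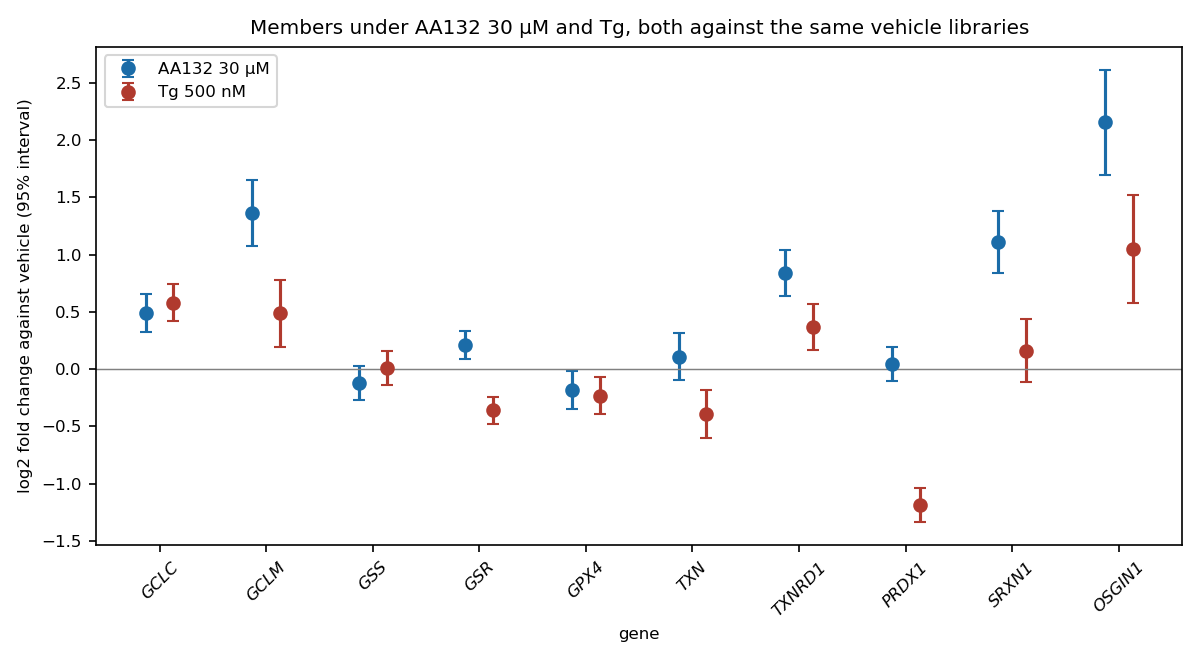
Fitted log2 fold change against vehicle (y axis, points with 95% intervals) for each member (x axis) at 30 µM AA132 and 500 nM Tg. The comparisons share their vehicle libraries; PRDX1 lies at 0.05 under AA132 and at -1.18 under Tg.

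The other genes of these pathways were taken from a list of 69, chosen with earlier results of these data known, of which 62 passed the filter. At 30 µM AA132 5 were called higher and 2 lower, beside 7.05% of all genes called. The risers were SLC7A11 (2.77, edgeR adjusted p = 1.22e-07) and SLC3A2 (1.36, 1.47e-08), which together form the cystine transporter that feeds glutathione synthesis, CHAC1 (1.23, 1.52e-06), which degrades glutathione, SESN2 (0.72, 1.59e-06), a sestrin, and GPX8 (0.34), an ER-resident peroxidase. The genes that fell were GLRX5 (-0.29, 0.0344), a mitochondrial glutaredoxin, and NXN (-0.28, 0.0217), nucleoredoxin. SLC7A11 went from 2.74, 6.35 and 6.02 CPM in vehicle libraries 1 to 3 to 41.4, 39.98 and 22.2 CPM, with no overlap. Without the 4 libraries that stand apart 12 of the list were called, 11 of them higher, while the share of all genes called went from 7.05% to 14.0%. The list median was 0.02, where that of all genes was -0.001.

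Under Tg 31 of the 62 were called, 17 higher and 14 lower, with a list median of 0.0006, where that of all genes was 0.0048. Of all genes 16.2% were higher and 15.0% lower, the background for every count under Tg here. SLC7A11 (3.65, edgeR adjusted p = 9.62e-12), CHAC1 (2.87, 2.08e-16), SESN2 (2.34, 9.73e-20) and TXNIP (1.81, 2.69e-08), which binds and inhibits thioredoxin, rose most. NXN (-0.71, 6.49e-09), MGST2 (-0.53, 0.000458), a microsomal glutathione transferase, MSRB1 (-0.48, 0.00119), a selenoprotein that repairs oxidised methionine, and mitochondrial PRDX3 (-0.36, 4.26e-05) fell most. By role, the genes that use glutathione gave 2 higher and 8 lower calls of 18 tested, and thioredoxin and peroxiredoxin genes 6 higher and 5 lower of 23. Of the 7 genes of selenoprotein synthesis, the process that TXNRD1 and GPX4 depend on, 5 were higher under Tg: SECISBP2, SEPHS2, PSTK, SEPSECS and SCLY, by 0.34 to 0.96 (named after their values were seen). None of the 7 was called at 30 µM AA132, by edgeR, where 2 had an unadjusted p under 0.05.

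Of 20 other genes known as NRF2 targets, 9 were higher and 0 lower at 30 µM AA132, beside 3.86% of all genes higher. These 20 were also chosen with earlier results of these data known. Under Tg 2 of the 20 were higher and 5 lower, beside 16.2% and 15.0% of all genes. HMOX1, heme oxygenase 1, led under AA132 (3.94, edgeR adjusted p = 6.52e-09), followed by the aldo-keto reductase AKR1C3 (1.14, 0.0283), the ferritin light chain FTL (0.79, 4.63e-07) and TRIM16L (0.74, 0.000101). Reads of AKR1C3 may be shared with its close paralogs. Under Tg, UGDH (1.27, 2.49e-15) and HMOX1 (0.96, 0.0256) rose, while CBR1 (-0.42), PGD (-0.39), TKT (-0.30) and TALDO1 (-0.29) were the largest falls. PGD, TKT and TALDO1 are enzymes of the pentose phosphate pathway.

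Likeness between members over the 11 condition means of log2 CPM is given as a description with no test, since conditions share a cell line and most are doses of 1 compound. GCLM correlated with TXNRD1 at r = 0.98, with OSGIN1 at 0.96 and with SRXN1 at 0.96. PRDX1 correlated with GSR at 0.92 and with TXN at 0.83, and the Tg libraries are the low ones for all 3. GSS ran against both sets, at -0.74 with GCLM, -0.76 with SRXN1, -0.72 with GSR and -0.60 with TXN. Its condition means spanned only 53.8 to 60.3 CPM, with no call in any comparison, and vehicle library 1 (68.3 CPM) raised its vehicle mean. GPX4 was at 0.69 with PRDX1, 0.52 with TXN, 0.39 with GSR, -0.38 with GCLM, -0.49 with OSGIN1 and -0.76 with GCLC. GCLC itself was at 0.87 with OSGIN1, 0.83 with TXNRD1, 0.80 with GCLM and 0.68 with SRXN1. Among 14001 genes with a mean of at least 1 CPM, the closest to GCLM were HMOX1 (r = 0.99) and GABARAPL1 (0.98), the closest to TXNRD1 were TMEM57 and TRIM16 (both 0.99), and the closest to SRXN1 were TRIM16L (0.99) and HMOX1 (0.98). GCLC lay closest to SLC3A2 (0.98) and TNFRSF10B (0.98), and OSGIN1 to KAT14 (0.98) and MTG2 (0.97). PRDX1 was closest to TUBA1A and CD59 (both 0.99), GSR to B4GALNT1 and SLCO3A1 (both 0.98), and TXN to POLR2H and MGST3 (both 0.97). GSS was closest to DHPS (0.96) and PTK2B (0.94), and GPX4 to MRPL28 and NME4 (both 0.94).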

How the data were processed

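RNA-seq of HEK293T cells was used as deposited: 33 columns of expected counts per gene (38074 entries) made by the authors, called linear total reads per the file headers and not scaled between libraries. The build was GRCh38.p7 per the submitters' processing notes. The aligner, counter, annotation and use of strand are not given in the sources used here. The value 0.009, which stands for 0 in 43.5% of cells, was set to 0. Entries sharing a name were summed (98 entries, 45 names), 28 entries with date-like names were kept apart, and expected counts were rounded. Unused columns numbered 0.

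Tests used edgeR 4.0.16 (quasi-likelihood F-test, TMM, filter on low counts) in R 4.3.3, with all 11 conditions in 1 fit and Benjamini-Hochberg adjustment over all genes tested in each comparison; calls are at an adjusted p under 0.05. Standard errors follow from the F statistic, and intervals are at 95%. The code was tested on simulated data. Positions and transcript lengths come from GENCODE v44, and symbols of all 10 members matched. Promoters come from RefSeq (GRCh38.p14). Log2 CPM used a prior count of 2.

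The members and lists were chosen with earlier results of these data known. Named genes were all members, up to 4 called list genes per direction with at least 1 CPM at 30 µM AA132 and under Tg, and the 2 genes most like each member. GPX8 and the genes of selenoprotein synthesis were named beyond that limit. Genes of small counts and genes that overlap a member were named after their values were seen. Alternatives were no filter, RLE factors, DESeq2 1.42.0, only the conditions compared, a replicate block, and leaving out each library, 1 dose or, added later, 4 libraries.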

Additional observations from a re-analysis of the deposited data

How the results depend on the processing

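Of the recomputed counts of called members or pathway genes, 313 stayed within 1.5 times the value with all libraries and 37 did not. Of the recomputed member values, 928 kept their direction and their side of the threshold, 51 lost a call, 21 gained one and 6 changed sign. With no filter on low counts, 2 members were called at 3 µM AA132, 2 under AA147 and 1 between AA132 and AA147. Pathway genes then numbered 1, 1, 2, 4, 2 and 2 at 0.1, 1, 3 and 6 µM AA132, under AA147 and between the compounds. Calls over all genes rose too, to 33, 46, 153, 360, 82 and 98 in these comparisons. With the filter they were 0, 0, 21, 190, 4 and 12. DESeq2 called 1 member under AA147 and 1 pathway gene each at 3 µM AA132 and between the compounds. Over all genes DESeq2 called 26 under AA147, 63 at 3 µM AA132 and 55 between the compounds. With only the conditions compared in the fit, members called fell to 0 at 6 and at 10 µM AA132. Pathway genes fell to 1, 1, 2, 4 and 18 at 6, 10, 15 and 30 µM AA132 and under Tg. Calls over all genes fell to 25, 8, 46, 74 and 3073 in these comparisons, from 190, 250, 491, 1255 and 5551. Fewer libraries then set the spread. Without the 4 libraries that stand apart, members called were 2 at 3 µM AA132, 1 under AA147 and 4 between the compounds, and pathway genes were 4, 6, 12, 3 and 3 at 3, 6 and 30 µM AA132, under AA147 and between the compounds. Leaving out 1 library moved member counts over 0 to 1 (3 µM), 2 to 4 (6 µM), 3 to 5 (10 µM), 5 to 7 (30 µM), 6 to 8 (Tg), 0 to 2 (between the compounds) and 5 to 6 (slope). Pathway counts ran over 0 to 1 (3 µM), 2 to 4 (6 µM), 2 to 7 (10 µM), 4 to 7 (15 µM), 6 to 11 (30 µM), 24 to 32 (Tg), 0 to 2 (between the compounds), 19 to 24 (AA132 30 µM against Tg) and 17 to 23 (slope). Over all genes the same fits called 0 to 85 (3 µM), 95 to 506 (6 µM) and 156 to 651 (10 µM). They called 267 to 920 (15 µM), 700 to 2017 (30 µM) and 4571 to 5769 (Tg). The ranges were 0 to 77 between the compounds, 4363 to 4605 for AA132 30 µM against Tg, and 2784 to 3656 for the slope. Near-zero values changed sign for PRDX1 at 30 µM AA132 without 30 µM library 3 (-0.023) or vehicle library 3 (-0.0011), over -0.023 to 0.117 with 1 library left out. GSS under Tg did so with no filter (-0.0041), without Tg library 1 (-0.034), vehicle library 2 (-0.055) or vehicle library 3 (-0.039), over -0.055 to 0.114 with 1 library left out. A block on the library number lost the GSR slope (0.05, edgeR adjusted p = 0.0524), which left 5 members with a called slope, and moved no other member count. The GSR slope was also lost with RLE factors (adjusted p = 0.0564), with no filter on low counts (0.0669) and without the 0.1 µM dose (0.0911). Same-numbered libraries of different conditions did not deviate together (median correlation 0.0006 over 165 pairs, from -0.15 to 0.18), so the numbers were not taken to pair libraries. The cause of these shifts was not tested. OSGIN1 had 60 to 68 counts in each vehicle library, which limits the precision of its fold changes.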

Other observations

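Transcripts of enzymes that work as pairs changed in unequal measure, seen when levels are divided by the length of the canonical transcript. These ratios were chosen after the values were seen and carry no test. The GCLC to GCLM ratio was 6.21 ± 0.07 in vehicle (SD, n = 3; 6.16 to 6.29) and 3.42 ± 0.31 at 30 µM AA132 (3.20 to 3.77), with no overlap. It was 4.70 ± 0.30 under AA147 and 6.63 ± 0.16 under Tg. The ratio was thus lower than in vehicle at 30 µM AA132 and under AA147, and the Tg libraries (6.48 to 6.80) lay above vehicle. At 0.1 and 0.3 µM AA132 its means of 6.22 and 6.39 were not below that of vehicle. Vehicle library 1, low for each subunit, did not stand out in this ratio.

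The TXN to TXNRD1 ratio was 4.38 ± 1.13 in vehicle, 2.58 ± 0.10 at 30 µM AA132 and 2.53 ± 0.06 under Tg. The vehicle mean was raised by library 1, which stands apart, at 5.68, where the other vehicle libraries were at 3.57 and 3.89. Those lay nearer the treated libraries (2.48 to 2.69 at 30 µM AA132 and 2.46 to 2.57 under Tg), without overlap. Both treatments gave about the same ratio by different routes: under AA132 TXNRD1 was called higher and TXN was not called, and under Tg TXNRD1 was called higher and TXN lower. The PRDX1 to SRXN1 ratio likewise was 242 ± 16.2 in vehicle, 116 ± 15.6 at 30 µM AA132 and 96.3 ± 13.7 under Tg. Under AA132 SRXN1 was called higher, and under Tg PRDX1 was called lower.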
